A study of Mus musculus with 12 samples.

Results

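The lysosome genes described here are the genes whose pathway annotation in the deposited count table holds the term Lysosome, together with every gene whose symbol starts with Atp6v, the prefix of the vacuolar proton pump subunits. Lamp1, Npc1, Npc2, Ctsw, Srgn and symbols starting with Slc were left out by rule. The rule gave 128 of the 16352 genes in the table. The term alone held 121 genes, of which 7 were left out (Ctsw, Lamp1, Npc1, Npc2, Slc11a1, Slc11a2 and Slc17a5), and 14 of the 21 Atp6v genes were added by their symbol alone. The rule used annotation and symbols, not measured values.

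The libraries are messenger RNA profiles of CD8 T cells taken from the spleen of C57BL/6 mice. They fall into 4 groups of 3 libraries, from WT (wild type) cells and from cKO cells (conditional knockout of Trmt61A), each sampled at 0 h and 48 h. Trmt61a encodes the catalytic subunit of a methyltransferase that places N1-methyladenosine on transfer RNA. The labels give no Cre driver, no age, no treatment of the cells between 0 h and 48 h, and no statement that a replicate number marks 1 mouse. The p-values below therefore measure the spread between libraries, part of which may be technical.

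Lysosomes are acidic organelles in which hydrolases break down proteins, glycans, lipids and nucleic acids delivered by endocytosis and autophagy. The vacuolar ATPase (V-ATPase) acidifies them: its cytosolic V1 sector hydrolyses ATP and its membrane V0 sector moves protons. In mammals many of these genes are targets of TFEB, TFE3 and MITF, which bind a motif around the E-box CACGTG. In cytotoxic T cells the granules that store perforin and granzymes are lysosome-related organelles.

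Total counts per library ran from 34341847 to 40270659. Of the 128 genes, 120 passed the count filter and were tested together with all 12404 genes that passed it. The median count of the 120 tested lysosome genes was 1354 per library. The other 8 (Ctsg, Entpd4, Atp6v1fnb, Atp6v0d2, Atp6v0e2, Atp6v1c2, Atp6v1e2 and Atp6v1g3) reached at most 17 counts in any library. Cd8a, a marker of the labelled cell type, lay between 1337 and 1542 CPM (read counts scaled to library size) at 0 h and between 666 and 747 CPM at 48 h. The 4 listed markers of CD4 T cells summed to 29.6 to 49.5 CPM in WT and 22.5 to 27 CPM in cKO at 0 h. At 48 h they summed to 32.2 to 41.5 CPM in WT and 34.3 to 56.4 CPM in cKO. Trmt61a checks the knockout. It was at 27.4, 29.8 and 26.3 CPM in WT at 0 h and at 42.0, 38.2 and 34.8 CPM in WT at 48 h. In cKO it was at 28.1, 0.807 and 1.88 CPM at 0 h and at 42.5, 0.956 and 1.1 CPM at 48 h, so both libraries labelled cKO replicate 1 were at the WT level. WT replicate 3 had 0 counts of Eif2s3y, a Y-linked gene, at both times, while each of the other 10 libraries had at least 3032. For the whole set of lysosome genes, the numbers called that rest on these libraries are given with and without them. Single genes and role groups are given with all libraries unless stated.

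Promoters are shown first, because the pathway's known regulators bind there. The RefSeq promoter table (GRCm38.p6, 250 bases before to 50 bases after each start) held 121 promoters for 102 of the 128 genes. The motifs searched were CACGTG, TCACGTGA and GTCACGTGAC, each of which reads the same on both strands and holds the one before it. TCACGTGA stood in 13 of the 121 promoters (10.7%), against 1.86% of the 12634 promoters of all tested genes and 0.974% of all 32851 promoters in the table. CACGTG stood in 21.5%, 9.78% and 7.15% of the same sets, and GTCACGTGAC in 1.65%, 0.681% and 0.326%. CACGTG is also bound by factors such as MYC and USF1. A match is a description and neither a site nor a cause.

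The 13 promoters with TCACGTGA belong to 12 genes, and the first match of each gene is printed below with the matched bases in capitals. They are read 5′ to 3′ on the strand of the gene and stand for the hydrolases, the pump, and the sorting and membrane proteins described below.
Ctsd (chr7:142387910-142387935, minus strand): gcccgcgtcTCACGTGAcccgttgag
Ctsa (chr2:164833751-164833776, plus strand): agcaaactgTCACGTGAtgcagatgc
Gla (chrX:134601217-134601242, minus strand): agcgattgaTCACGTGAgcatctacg
Sumf1 (chr6:108185579-108185604, minus strand): caccacaggTCACGTGAtctccatgg
Atp6v1a (chr16:44139375-44139400, minus strand): ttttttaaaTCACGTGAtaggcttaa
Atp6v0d1 (chr8:105566052-105566077, minus strand): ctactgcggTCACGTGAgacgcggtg
Atp6v0e (chr17:26676389-26676414, plus strand): gcgcgccgaTCACGTGAgcctctgtt
Mcoln1 (chr8:3500464-3500489, plus strand): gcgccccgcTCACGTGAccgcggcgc
Cln3 (chr7:126583342-126583367, minus strand): cgggtactGTCACGTGACccccaacc
Cd164 (chr10:41519403-41519428, plus strand): ccgggctgcTCACGTGAccggcgcgc
Gnptg (chr17:25240122-25240147, minus strand): ggctgtcacTCACGTGAccgtgagac
Igf2r (chr17:12769739-12769764, minus strand): acgaggacgTCACGTGAgcaggaggc
In Cln3 the capitals mark the longer GTCACGTGAC. Ctsa, Gla and Igf2r each held TCACGTGA at 2 places, and the same Gnptg match lay in 2 overlapping promoters.

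Whole promoters are given for Ctsa and Atp6v1a, a hydrolase gene and a pump gene that both carry the motif and that moved in opposite directions over 48 h. The TCACGTGA matches are in capitals. In Ctsa the CACGTG of the first match began at position -12 from the start, and in Atp6v1a at position -131.
Ctsa (chr2:164833523-164833822, plus strand, GRCm38.p6): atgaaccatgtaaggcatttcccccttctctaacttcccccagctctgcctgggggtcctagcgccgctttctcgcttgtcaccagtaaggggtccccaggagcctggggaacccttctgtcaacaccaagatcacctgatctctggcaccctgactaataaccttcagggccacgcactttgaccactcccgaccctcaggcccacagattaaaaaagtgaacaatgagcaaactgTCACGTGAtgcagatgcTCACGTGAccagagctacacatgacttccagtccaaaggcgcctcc
Atp6v1a (chr16:44139210-44139509, minus strand, GRCm38.p6): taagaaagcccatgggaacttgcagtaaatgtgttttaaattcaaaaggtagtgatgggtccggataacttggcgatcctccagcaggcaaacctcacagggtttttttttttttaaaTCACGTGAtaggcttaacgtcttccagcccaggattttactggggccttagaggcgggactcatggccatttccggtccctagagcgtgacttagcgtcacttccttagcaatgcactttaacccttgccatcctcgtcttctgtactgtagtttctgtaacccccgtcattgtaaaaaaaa

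The first question was how lysosome transcripts changed in WT cells between 0 h and 48 h. Most of the hydrolase and membrane protein genes fell, and a minority of genes rose. The proton pump genes had a median log2 fold change of -0.02, with a lower median in their V0 sector (-0.19). The summed level of all 128 genes was 9343, 9605 and 9603 CPM in WT at 0 h and 6370, 6407 and 6365 CPM in WT at 48 h. The 3 libraries of 48 h all lay below the 3 of 0 h. Among the 120 tested genes, 66 fell and 22 rose by edgeR's quasi-likelihood test at an adjusted p under 0.05. Over all tested genes 38.4% fell and 36.9% rose, while the shares among the lysosome genes were 55.0% and 18.3%. Their median log2 fold change was -0.42, against -0.02 for all tested genes. By at least 2-fold, 32 fell and 11 rose, beside 19.7% and 20.9% of all tested genes. Without both libraries of WT replicate 3, 64 of 121 tested lysosome genes fell and 22 rose (edgeR), with a median of -0.48. Over all 12647 genes tested in that fit, 4263 fell and 4254 rose. In bulk RNA, fewer cells of a type and less RNA per cell cannot be told apart. CPM are also shares of each library, so a gene that fell took a smaller share, and RNA per cell was not measured.

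**Figure D1:**
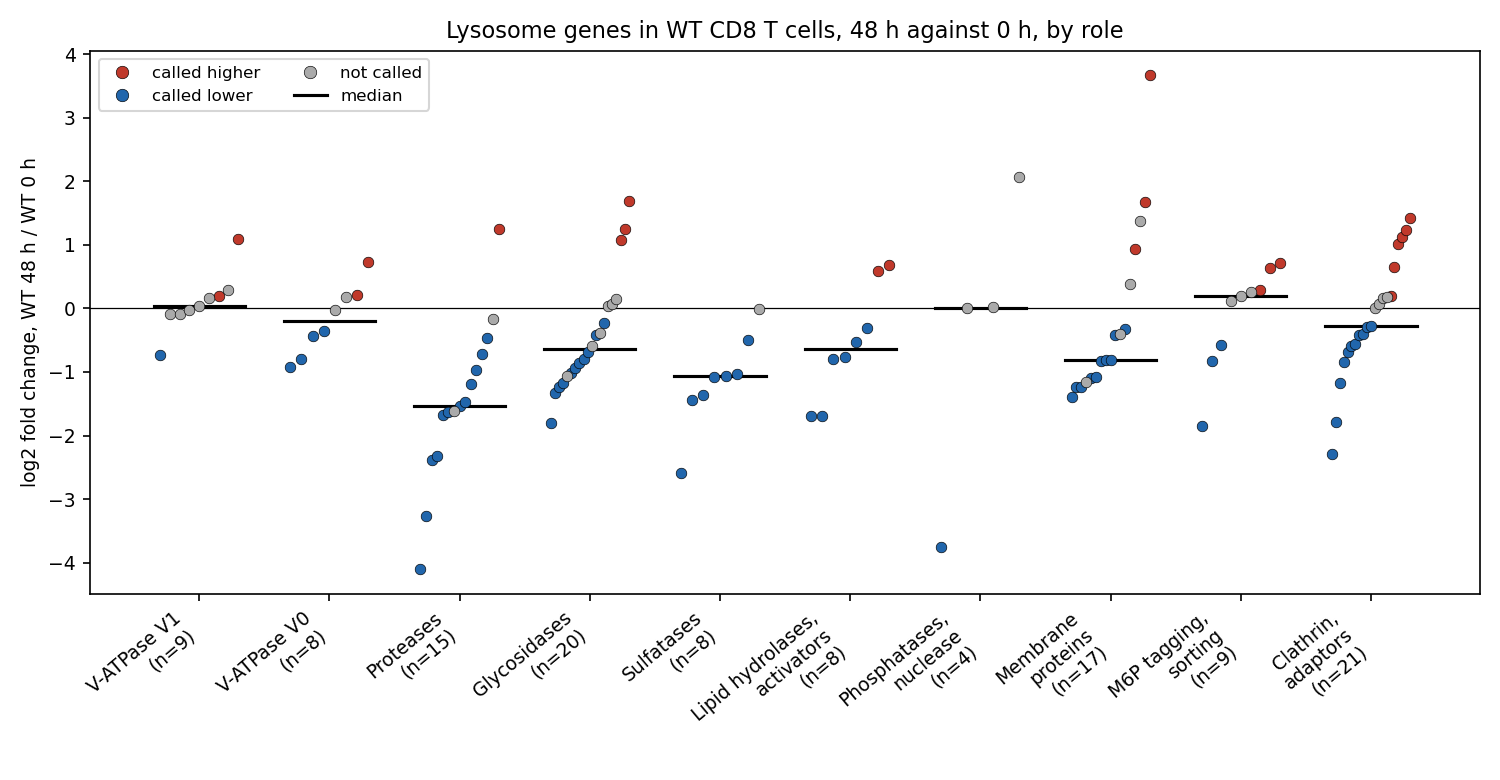
Log2 fold change of WT at 48 h over WT at 0 h (vertical axis) for the tested genes with a role, grouped by role (horizontal axis, number of genes in brackets). Each point is 1 gene, red and blue points passed the test, and bars are medians. Proteases have the lowest median (-1.54), the V1 pump subunits have a median of 0.03 and the V0 subunits one of -0.19.

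Proteases had the lowest median of the role groups, at a log2 fold change of -1.54, with 12 of 15 lower and 1 higher. These are 80% and 6.67%, beside 38.4% and 36.9% of all tested genes. Ctsd, the main aspartic protease of the lysosome, was at 458, 451 and 407 CPM at 0 h and at 163, 153 and 157 CPM at 48 h. The groups were far apart, and the log2 fold change was -1.48 ± 0.07 (standard error here and below; edgeR, adjusted p = 4.78e-11). Ctsa, which encodes protective protein, a carboxypeptidase that stabilises beta-galactosidase and neuraminidase, fell from 156 ± 13.0 to 53.6 ± 1.54 CPM (mean ± SD, n = 3). Its log2 fold change was -1.54 ± 0.07. Tpp1, a tripeptidyl peptidase, fell by 0.97 on the log2 scale, and Ctsb, a cysteine cathepsin, by 0.47. Ctsc, which activates granzymes in cytotoxic cells, was at 139, 128 and 107 CPM at 0 h and at 115, 104 and 114 CPM at 48 h, and did not pass the test (log2 fold change -0.16 ± 0.15). Ctsz, a carboxypeptidase, was the protease that rose: 40.1, 43.8 and 43.0 CPM at 0 h became 95.9, 97.3 and 107 CPM at 48 h (log2 fold change 1.24 ± 0.08, edgeR, adjusted p = 2.65e-09).

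Several of the falling proteases are also known from antigen-presenting cells, and markers of those cells fell with them. Ctsh, an aminopeptidase, was at 5.46, 4.45 and 7.72 CPM at 0 h and at 0.517, 0.106 and 0.393 CPM at 48 h. Lgmn, an asparaginyl endopeptidase, fell from 5.38 ± 0.983 to 1.67 ± 0.715 CPM, and Napsa from 7.34 ± 1.19 to 2.37 ± 0.428 CPM (n = 3). Ctss, which processes the invariant chain, fell from 185 ± 4.29 to 81.0 ± 3.25 CPM. The 24 myeloid markers together had 75.8 to 106 CPM in the WT libraries of 0 h and 9.69 to 14.6 CPM in those of 48 h. Of the 21 tested markers, 18 fell (85.7%), beside 38.4% of all tested genes. C1qc, Clec9a and Siglech were at 0 in all 6 libraries of 48 h. The 12 B cell markers had 133 to 236 CPM before and 22.4 to 35.6 CPM after 48 h, and 12 of 12 fell. The part of these cells in the fall of the proteases was not tested. For 5 natural killer markers the sums were 4.48 to 11.8 CPM before and at most 0.599 CPM after, and for 8 erythroid markers 13.4 to 98.0 CPM before and at most 1.2 CPM after. For 10 T cell markers they were 5914 to 6428 CPM before and 2892 to 2939 CPM after. Of these T cell markers 8 fell (80%) and 1 rose, so a called fall was not particular to markers of other cells.

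Enzymes that degrade glycans fell in most cases. Of 20 tested glycosidases and related enzymes, 11 fell (55%) and 3 rose (15%), beside 38.4% and 36.9% of all tested genes. Hexa, which encodes the alpha chain of hexosaminidase A, was at 58.8, 50.9 and 54.8 CPM at 0 h and at 23.2, 22 and 20 CPM at 48 h. The groups were far apart, and the log2 fold change was -1.34 ± 0.10 (edgeR, adjusted p = 1.08e-08). Idua, the alpha-L-iduronidase gene, fell by 1.80 on the log2 scale. The 3 that rose were Hyal2, a hyaluronidase (4.02 ± 0.346 to 13.0 ± 1.57 CPM), Gla, alpha-galactosidase A (6.58 ± 0.701 to 15.7 ± 2.01 CPM), and Gusb, beta-glucuronidase (45.3 ± 1.58 to 95.5 ± 4.95 CPM). Gaa and Fuca1 did not pass the test, with log2 fold changes of 0.07 and 0.04.

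Sulfatase genes, including the activating enzyme Sumf1, fell in 7 of 8 cases (87.5%) and none rose, beside 38.4% and 36.9% of all tested genes. Sgsh, which removes sulfate from heparan sulfate, fell the most of them: 63.8, 72.1 and 62.3 CPM at 0 h became 11.6, 10.9 and 10.3 CPM at 48 h. The log2 fold change was -2.60 ± 0.10 (edgeR, adjusted p = 9.01e-12). Ids, another heparan and dermatan sulfate enzyme, fell by 1.44, Arsb by 1.37 and Sumf1 by 0.50 on the log2 scale. Galns was the one that did not pass (log2 fold change -0.01).

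Lipid hydrolases and their activators divided 6 lower to 2 higher of 8. These are 75% and 25%, beside 38.4% and 36.9% of all tested genes. Psap, the precursor of the saposins that present lipids to their hydrolases, was at 742, 756 and 684 CPM at 0 h and at 223, 237 and 213 CPM at 48 h. All libraries of 48 h lay far below those of 0 h, and the log2 fold change was -1.70 ± 0.06 (edgeR, adjusted p = 7.6e-12). Lipa, the acid lipase, fell from 101 ± 5.42 to 31.3 ± 2.26 CPM. Smpd1, acid sphingomyelinase, fell by 0.79 and Gm2a, the GM2 activator, by 0.52 on the log2 scale. The 2 that rose were Asah1, acid ceramidase (log2 fold change 0.59 ± 0.16), and Pla2g15, a phospholipase (0.69 ± 0.21).

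Of the phosphatases and nucleases, Acp5 alone passed the test. Acp5, tartrate-resistant acid phosphatase, was at 510, 509 and 385 CPM at 0 h and at 36.4, 38.7 and 28.6 CPM at 48 h. The log2 fold change was -3.76 ± 0.15 (edgeR, adjusted p = 1.93e-11). Acp2, lysosomal acid phosphatase, was at 9.43 ± 0.575 and 9.60 ± 1.44 CPM, and Dnase2a at 6.4 ± 0.83 and 6.39 ± 0.355 CPM at 0 h and 48 h. Entpd4b was set by single libraries: its 6.86 CPM in WT replicate 3 at 48 h and 4.76 CPM in cKO replicate 2 at 0 h stood above 0.299 to 1.26 CPM in the other 10. Entpd4 and Entpd4b are near-identical copies, so the split of reads between them is uncertain.

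Membrane proteins moved both ways, with 10 of 17 lower (58.8%) and 3 higher (17.6%), beside 38.4% and 36.9% of all tested genes. Laptm5, a lysosomal protein of blood cells known to limit antigen receptor levels, was at 1120, 1217 and 1352 CPM at 0 h and at 471, 483 and 450 CPM at 48 h (log2 fold change -1.39 ± 0.07). Mcoln1, the calcium channel TRPML1, fell from 33.6 ± 0.957 to 14.3 ± 0.916 CPM, and Cln3, mutated in juvenile Batten disease, from 42.5 ± 5.64 to 20.1 ± 1.83 CPM. Cd164, a sialomucin, fell by 0.81 on the log2 scale and Ctns, the cystine exporter, by 1.1. Litaf, a late endosomal protein, rose more than any other lysosome gene tested in WT: it was at 4.15, 4.03 and 5.03 CPM at 0 h and at 56.7, 54.6 and 56.5 CPM at 48 h. Its log2 fold change was 3.67 ± 0.12 (edgeR, adjusted p = 2.65e-12). Abcb9, a lysosomal peptide transporter, rose from 24.8 ± 1.45 to 79.2 ± 8.47 CPM. Lamp2, a major protein of the lysosomal membrane, rose from 24.3 ± 3.52 to 46.7 ± 2.31 CPM. Cd68 and Cd63 did not pass the test; Cd68 was at 4.09 ± 0.437 and 3.10 ± 0.797 CPM.

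Genes that tag and sort hydrolases were evenly divided, 3 higher and 3 lower of 9. These are 33.3% each, near the 36.9% and 38.4% of all tested genes. Hydrolases carry mannose 6-phosphate, made by GlcNAc-1-phosphotransferase, to their receptors M6pr and Igf2r. The subunits of that transferase moved apart. Gnptab, which encodes its catalytic chains, was at 59.5, 53.9 and 54.9 CPM at 0 h and at 90.9, 94.6 and 91.3 CPM at 48 h. Gnptg, its gamma subunit, was at 70.2, 70.1 and 70.5 CPM at 0 h and at 18.6, 19.7 and 19.8 CPM at 48 h. The log2 fold changes were 0.72 ± 0.09 and -1.86 ± 0.11 (edgeR, adjusted p = 2.9e-06 and 7.17e-10). M6pr rose by 0.29 ± 0.06, and Igf2r did not pass (0.12 ± 0.08). Of the GGA adaptors, Gga2 rose by 0.63 while Gga1 fell by 0.83 and Gga3 by 0.57 on the log2 scale.

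Clathrin and the AP adaptor complexes, which the annotation term includes, gave 6 higher and 11 lower of 21. These are 28.6% and 52.4%, beside 36.9% and 38.4% of all tested genes. Within single complexes subunits went both ways. Cltc, the clathrin heavy chain, was at 163, 171 and 215 CPM at 0 h and at 441, 427 and 425 CPM at 48 h, while Clta, a light chain, fell by 0.28 on the log2 scale. Among the small subunits of AP-1, Ap1s1 rose (log2 fold change 1.42 ± 0.11), Ap1s3 rose (1.12 ± 0.11) and Ap1s2 fell (-1.18 ± 0.15). In AP-3, Ap3s1 rose (1.01 ± 0.08), and Ap3m2 fell from 60.5 ± 2.62 to 12.3 ± 1.03 CPM (log2 fold change -2.29 ± 0.10). Ap3d1, the large delta subunit, fell by 0.85. Fuca2 and Atp6v1fnb were placed in no role group, and Fuca2 did not pass the test in WT (log2 fold change 0.26 ± 0.13).

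The proton pump genes differed from the hydrolases in their median. Of 22 subunit genes, 17 were tested: 4 rose (23.5%), 5 fell (29.4%), and the median log2 fold change was -0.02. Over all tested genes 36.9% rose and 38.4% fell. For the 55 tested lumenal hydrolases and activators the counts were 6 and 37, with a median of -0.86. The difference between these groups of genes was not tested. In WT the V1 genes summed to 492 to 536 CPM before and 531 to 544 CPM after 48 h, and the V0 genes to 516 to 542 CPM before and 399 to 418 CPM after. Of 9 tested V1 genes 2 rose (22.2%) and 1 fell (11.1%), with a median of 0.03. Of 8 tested V0 genes 2 rose (25%) and 4 fell (50%), with a median of -0.19.

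In the V1 sector, 1 subunit stood apart. Atp6v1a, the catalytic A subunit, was at 50.8, 42.3 and 55.6 CPM at 0 h and at 103, 108 and 106 CPM at 48 h. The groups did not overlap, and the log2 fold change was 1.09 ± 0.11 (edgeR, adjusted p = 2.92e-07). Its partner in the ATPase ring, Atp6v1b2, was at 78.3, 70.9 and 86.0 CPM at 0 h and at 82.5, 78.5 and 79.4 CPM at 48 h, with overlapping groups and a log2 fold change of 0.03 ± 0.08. Atp6v1d, the central stalk subunit, fell from 89.3 ± 8.08 to 53.9 ± 1.35 CPM. Atp6v1h, a regulatory subunit, rose by 0.20 ± 0.08 (edgeR, adjusted p = 0.0311). Atp6v1c1, Atp6v1e1, Atp6v1f, Atp6v1g1 and Atp6v1g2 did not pass the test.

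In the V0 sector the a subunits, which place the pump in different membranes, differed in level and in direction. Per kb of merged exon, the mean level in WT at 0 h was 21.1 ± 0.575 CPM per kb for Atp6v0a2, 12.9 ± 1.35 for Tcirg1, which encodes a3, and 0.379 ± 0.139 for Atp6v0a1 (SD, n = 3). At 48 h it was 11.2 ± 0.260, 10.1 ± 0.537 and 0.630 ± 0.138 CPM per kb. Atp6v0a2 was at 145, 137 and 144 CPM at 0 h and at 75.9, 76.0 and 73.0 CPM at 48 h (log2 fold change -0.92 ± 0.08, edgeR, adjusted p = 5.54e-08). Tcirg1 fell by 0.36 ± 0.11 on the log2 scale. Atp6v0a1 was at 2.13, 1.80 and 3.52 CPM at 0 h and at 3.18, 4.22 and 4.99 CPM at 48 h, so the groups overlapped although the test was passed (log2 fold change 0.73 ± 0.31, edgeR, adjusted p = 0.0414). Atp6v0c, the proteolipid ring subunit, rose by 0.22 ± 0.08 (edgeR, adjusted p = 0.0268). Atp6v0d1, which joins the ring to the stalk, fell by 0.43, and the accessory subunit Atp6ap1 fell from 119 ± 1.45 to 68.5 ± 2.63 CPM. The calls for Atp6v1h, Atp6v0a1 and Atp6v0c were lost with upper-quartile scaling (log2 fold changes 0.10, 0.63 and 0.11; adjusted p = 0.25, 0.0807 and 0.189, edgeR). Each of the 3 calls was also lost on leaving out any of 4 single WT libraries, with the same direction and with adjusted p up to 0.138 for Atp6v1h, 0.148 for Atp6v0a1 and 0.0776 for Atp6v0c (edgeR). Atp6v0a1 also missed the threshold with only the WT groups fitted (adjusted p = 0.0513, edgeR), and Atp6v0c without both libraries of WT replicate 3 (adjusted p = 0.0999, edgeR).

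**Figure D2:**
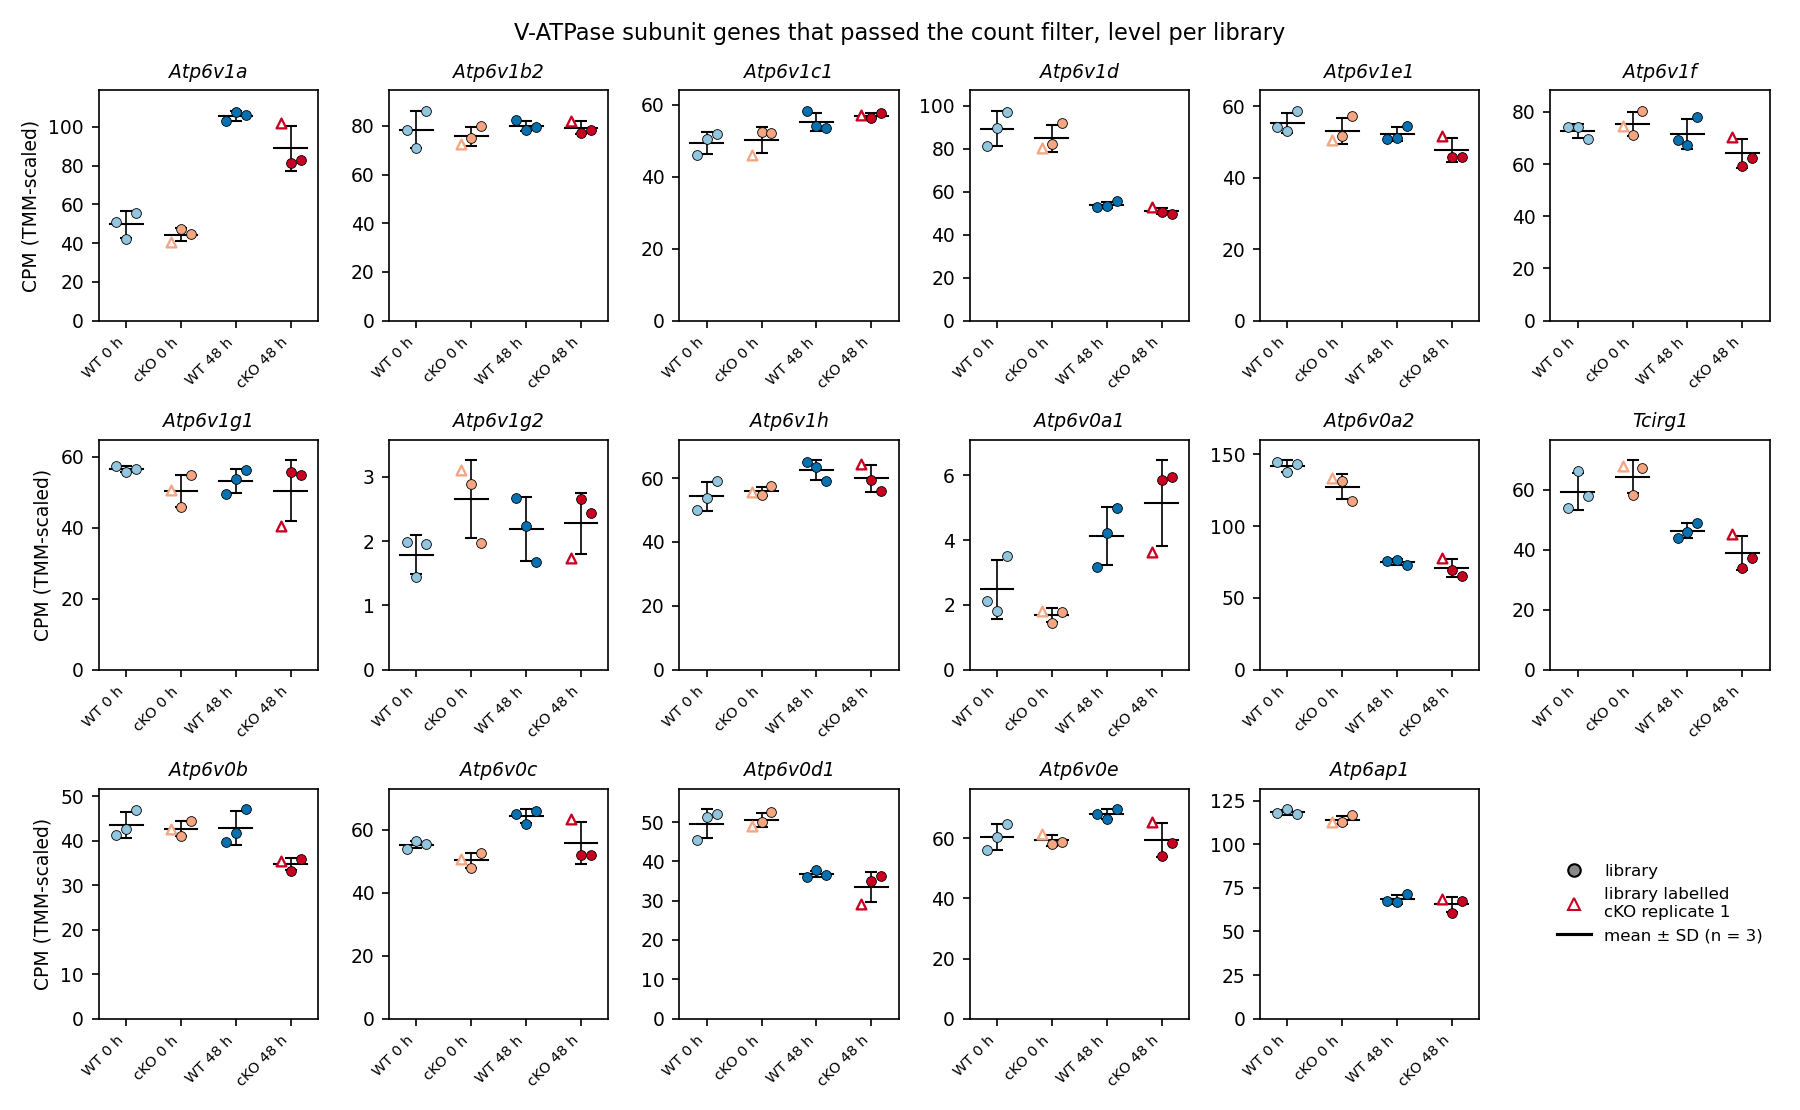
CPM (vertical axes, each starting at 0) of the 17 tested V-ATPase subunit genes in each library, by group (horizontal axes). Points are libraries, triangles the libraries labelled cKO replicate 1, and bars the mean ± SD of 3. Atp6v1a lies between 40.6 and 55.6 CPM at 0 h and between 81.3 and 108 CPM at 48 h, while Atp6v0a2, Atp6ap1 and Atp6v1d are lower at 48 h in both genotypes.

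Subunit forms known from specialised tissues were at or near the detection limit. The highest count in any library was 17 for Atp6v0d2, 5 for Atp6v1g3, 4 for Atp6v0e2 and Atp6v1e2 and 1 for Atp6v1c2. Of the G subunits, Atp6v1g1 was at 49.8 ± 0.723 CPM per kb and Atp6v1g2 at 0.714 ± 0.122 CPM per kb in WT at 0 h.

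Promoters with TCACGTGA occurred in each class of call in WT. They made up 9 of the 69 promoters of genes that fell, 2 of the 20 of genes that rose and 2 of the 26 of genes that did not pass. Ctsa, Ctsd, Mcoln1, Cln3, Cd164, Gnptg, Sumf1 and Atp6v0d1 fell, Atp6v1a and Gla rose, and Atp6v0e and Igf2r did not pass the test. The sequences of these 12 genes are printed above.

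The same comparison in cKO cells addresses whether the change over 48 h was also present with Trmt61a targeted. It was: of the 120 tested genes, 68 fell and 23 rose (edgeR), with a median log2 fold change of -0.55. Over all tested genes 36.2% fell and 36.4% rose. In cKO the summed level of the 128 genes went from 9416, 9494 and 9793 CPM (0 h libraries) to 6387, 6176 and 6207 CPM (48 h libraries). In total 63 genes fell in both genotypes, 19 rose in both, and none was called in opposite directions. A further 6 genes were called in WT only and 9 in cKO only, and 23 in neither. The shares of all tested genes in these classes were not computed, so the overlap is not read as particular to the lysosome genes. The pump genes gave 3 higher and 7 lower of 17, with a median of -0.15, and the lumenal hydrolases 5 higher and 38 lower of 55, with a median of -0.87. By sector, the pump medians in cKO were -0.002 for V1 and -0.45 for V0. Acp5 fell by 3.32, Sgsh by 2.16 and Psap by 1.58 on the log2 scale in cKO, while Litaf rose by 3.26 ± 0.12 and Atp6v1a by 1.00 ± 0.11. Myeloid markers fell in cKO as well, whose sum ranged over 49.95 to 96.1 CPM before and over 11.0 to 14.5 CPM after 48 h, and their part in the result was not tested. Without both libraries labelled cKO replicate 1, 21 genes rose and 68 fell of 121 tested, beside 33.6% and 32.8% of all genes tested in that fit, and the pump genes gave 2 higher and 8 lower with a median of -0.05.

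**Figure D3:**
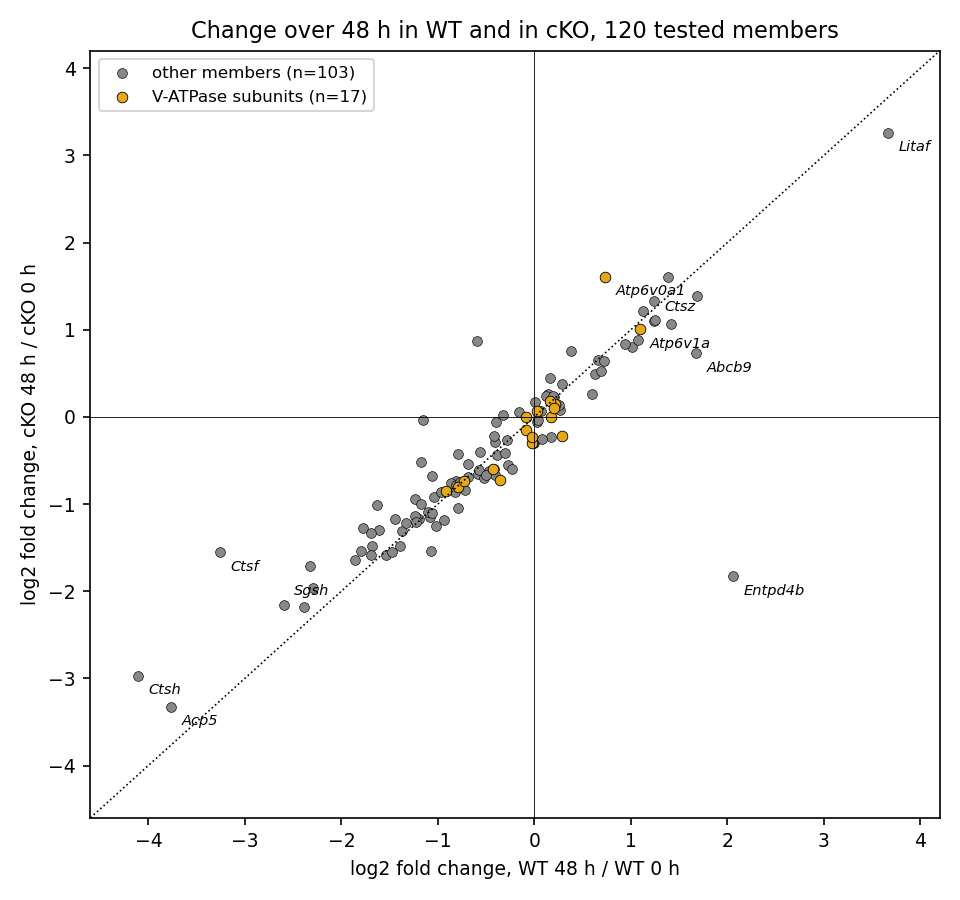
Log2 fold change over 48 h in cKO (vertical axis) against WT (horizontal axis) for the 120 tested genes. Orange points are the 17 V-ATPase subunits, grey points the other 103 genes, and the dotted line marks equal change. Litaf and Atp6v1a rose and Acp5 and Ctsh fell in both genotypes, and Entpd4b lies far from the line, with values set by single libraries.

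At 0 h the comparison asks whether cKO and WT cells differed at the start. None of the 120 genes was called higher or lower (edgeR), and over all tested genes 0.00806% were called higher and 0% lower. At an unadjusted p under 0.05 there were 11 lysosome genes, beside 9.38% of all tested genes, and DESeq2 and limma-voom called 0 as well. Over all genes DESeq2 called 22 higher and 18 lower of 15075, and limma-voom 0 and 0 of 12404. Laptm5, for example, was at 1229.8 ± 116 CPM in WT and 1260.1 ± 19.1 CPM in cKO (log2 fold change 0.04 ± 0.06), and Atp6v1a at 49.6 ± 6.73 and 44.3 ± 3.40 CPM (-0.16 ± 0.11). Without both libraries labelled cKO replicate 1 edgeR again called 0 in each direction, and 15 genes had an unadjusted p under 0.05. EdgeR without both libraries of WT replicate 3 also called 0 in each direction.

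At 48 h, 5 lysosome genes differed between cKO and WT by edgeR's quasi-likelihood test. Ctse, Ctso, Sgsh and Ap3m2 were higher in cKO and Abcb9 was lower, among 3.1% of all tested genes called higher and 1.09% called lower. The 5 genes are 3.33% and 0.833% of the 120, so the shares were near those of all genes. Ctse, an aspartic protease, was at 6.29, 7.33 and 5.63 CPM in WT and at 10.1 CPM in each of the 3 cKO libraries (log2 fold change 0.66 ± 0.13, adjusted p = 0.0169, edgeR). Ctso, a cysteine protease, was at 9.44, 12.1 and 8.65 CPM in WT and at 15, 20.3 and 15.8 CPM in cKO (0.76 ± 0.15, adjusted p = 0.0132, edgeR). In both genes every cKO library lay above every WT library. Of the 21 tested myeloid markers, 2 were also called higher in cKO at 48 h and 0 lower (edgeR). S100a9, a neutrophil calcium-binding protein, had 0 counts in the 3 WT libraries and 42, 73 and 51 counts in cKO. Its partner S100a8 had 0, 1 and 0 counts in WT and 20, 34 and 39 counts in cKO. The sums of the 24 myeloid markers overlapped, at 9.69 to 14.6 CPM in WT and 11.0 to 14.5 CPM in cKO. Their part in the differences of the lysosome genes was not tested.

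Sgsh, the sulfatase described above, was at 11.6, 10.9 and 10.3 CPM in WT and at 17.4, 15.1 and 15.1 CPM in cKO (log2 fold change 0.54 ± 0.10, adjusted p = 0.0114, edgeR). Ap3m2, the AP-3 medium subunit, was at 13.4, 12.3 and 11.4 CPM in WT and at 15.4, 18.5 and 16 CPM in cKO (0.43 ± 0.10, adjusted p = 0.0266, edgeR). Abcb9, the peptide transporter, was at 69.8, 81.7 and 86.1 CPM in WT and at 39.4, 41.0 and 61.7 CPM in cKO (-0.74 ± 0.15, adjusted p = 0.0187, edgeR). The groups did not overlap in any of the 3 genes, as was the case, with cKO higher or lower, for 13.2% and 11% of all tested genes. All 5 had moved over 48 h in both genotypes, and the mean of each in cKO at 48 h lay between the 0 h means and the WT mean at 48 h. Sgsh overlaps the protein-coding gene Card14 on the other strand, and no strand setting of the counting is given in the sources used here.

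**Figure D4:**
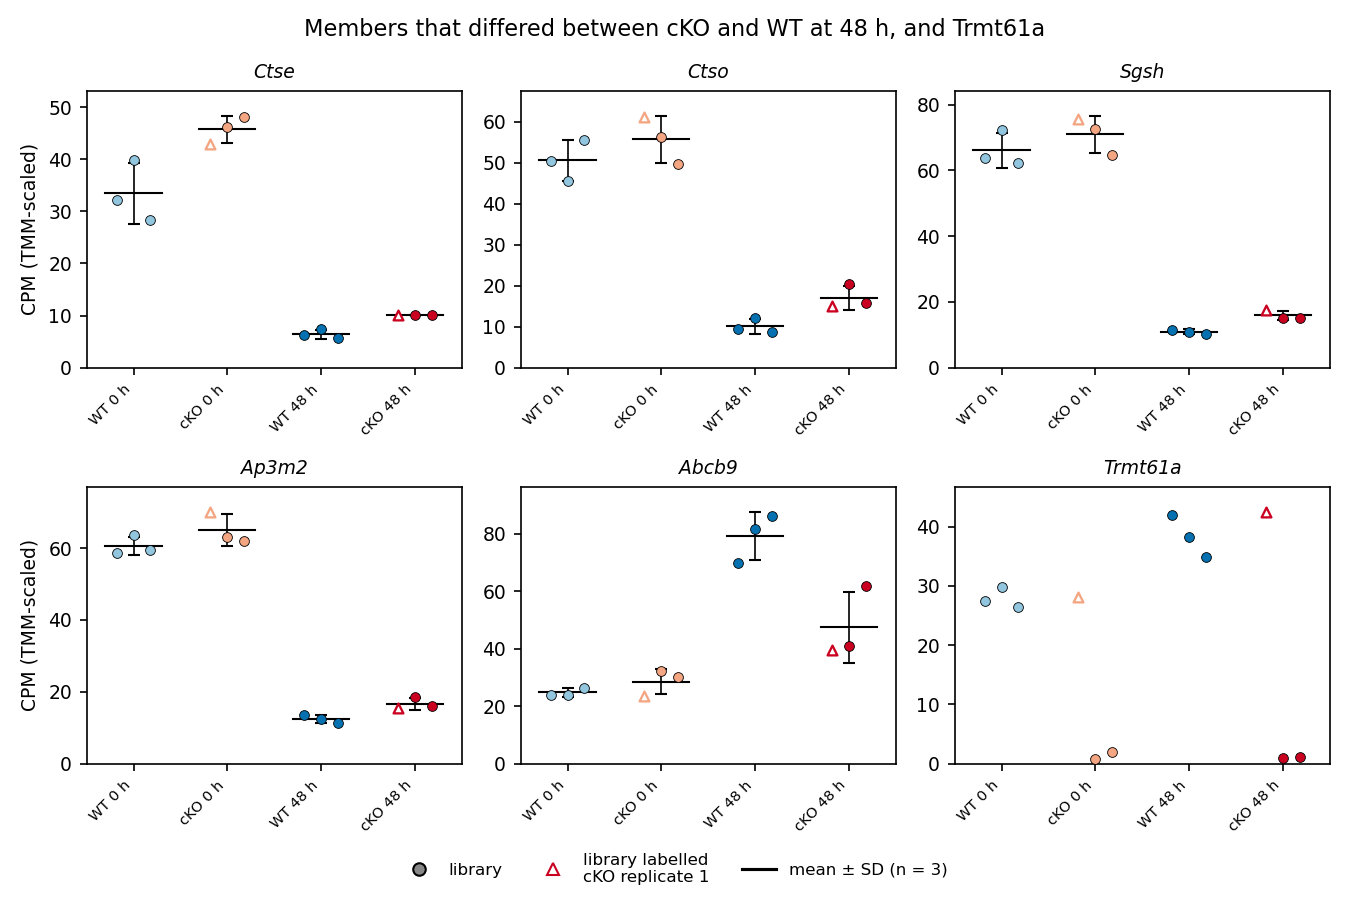
CPM (vertical axes, each starting at 0) of the 5 genes that differed between cKO and WT at 48 h, and of Trmt61a, in each library, by group (horizontal axes). Points are libraries, triangles the libraries labelled cKO replicate 1, and bars the mean ± SD of 3, not drawn for Trmt61a. The triangles lie with the WT libraries for Trmt61a and with the other cKO libraries for Ctse, Sgsh and Abcb9 at 48 h.

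Each of these 5 calls was lost in some fits with fewer libraries, in which fewer genes were called among all tested genes as well. Without WT replicate 3 at 48 h none of the 5 passed, and the same held without both libraries of WT replicate 3 (Sgsh 0.49 ± 0.11, adjusted p = 0.087; Abcb9 -0.68 ± 0.18, adjusted p = 0.129, edgeR). Without cKO replicate 2 at 48 h only Sgsh passed, and without WT replicate 2 at 48 h Ctse, Ctso and Sgsh did. In a fit of the WT and cKO libraries of 48 h alone, none of the 5 passed (adjusted p = 0.0525 for Sgsh) and Litaf was called lower. Over all tested genes, the fit of 12 libraries called 384 higher and 135 lower of 12404. Without WT replicate 3 at 48 h these were 47 and 6 of 12724, and without both its libraries 15 and 1 of 12647. Without cKO replicate 2 at 48 h they were 64 and 8 of 12720, and without WT replicate 2 at 48 h 258 and 55 of 12728. With the 48 h groups alone they were 82 and 56 of 11670.

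Without both libraries labelled cKO replicate 1, which held Trmt61a at the WT level, 21 lysosome genes differed at 48 h: 9 were higher and 12 lower of 121, all 5 of the calls above included. Over all genes tested in that fit, 8.96% were called higher and 8.78% lower. The lower genes included 5 of the 17 tested pump subunits and none was higher. Their log2 fold changes were -0.36 ± 0.10 for Atp6v1a, -0.31 ± 0.10 for Atp6v0b, -0.31 ± 0.07 for Atp6v0c, -0.27 ± 0.08 for Atp6v0e and -0.38 ± 0.10 for Tcirg1. Atp6v1a, for example, was at 103, 108 and 106 CPM in WT, at 81.3 and 83.0 CPM in cKO replicates 2 and 3, and at 102 CPM in the library labelled cKO replicate 1. Atp6v0b was at 39.6, 41.9 and 47.1 CPM in WT, at 33.3 and 35.9 CPM in cKO replicates 2 and 3 and at 35.4 CPM in the library labelled cKO replicate 1. Both clathrin light chain genes were lower too, with log2 fold changes of -0.41 ± 0.07 for Clta and -0.59 ± 0.09 for Cltb, as were Abcb9, Ap1s1, Ap3s1, Gusb and Litaf. Higher in cKO in that fit were also Abca2, Acp5, Ap1m2, Idua and Psap. In the edgeR fit of all 12 libraries no pump subunit passed (Atp6v0b -0.30 ± 0.08, adjusted p = 0.0575), while DESeq2 on the same libraries called Atp6v0b lower.

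The test of whether the change over 48 h itself differed between genotypes called none of the 120 genes (edgeR), with 0.105% of all tested genes called higher and 0.00806% lower. At an unadjusted p under 0.05 there were 18 lysosome genes, beside 16.7% of all tested genes. DESeq2 called 1 (lower), beside 316 higher and 133 lower of 10958 genes in its own fit. Limma-voom called 0, beside 17 higher and 2 lower of 12404 genes. EdgeR without both libraries of WT replicate 3 called 0 in each direction, among the lysosome genes and among all genes tested. Abcb9 had the value -0.95 ± 0.22 (adjusted p = 0.0845, edgeR), a rise of 1.68 ± 0.16 in WT beside 0.73 ± 0.16 in cKO. Without both libraries labelled cKO replicate 1, 7 genes were called, 2 higher and 5 lower, among them Ctso (higher) and Abcb9, Ap1s1, Clta, Cltb and Gusb (lower), against 3.53% and 3.34% of all genes tested in that fit.

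Genes that act on or beside the lysosome were read from lists of the same pathway. Of 9 tested regulators around TFEB, 6 fell and 3 rose in WT (edgeR), beside 38.4% and 36.9% of all tested genes. Tfeb was at 18.8, 19.8 and 23.4 CPM at 0 h and at 16.2, 13.2 and 11.2 CPM at 48 h (log2 fold change -0.61 ± 0.14). Tfe3, its paralog, was at 29.1, 30.3 and 25.6 CPM at 0 h and at 41.7, 40.5 and 36.7 CPM at 48 h (0.48 ± 0.09). Mitf was low and fell, from 1.89 ± 0.442 to 0.395 ± 0.178 CPM. Zkscan3, known as a repressor of lysosome and autophagy genes, fell by 1.14 on the log2 scale in WT and was higher in cKO than in WT at 48 h (37.9 ± 2.37 and 29.7 ± 2.77 CPM, log2 fold change 0.35 ± 0.09, adjusted p = 0.0414, edgeR). That call was lost without both libraries of WT replicate 3 (0.36 ± 0.10, adjusted p = 0.146, edgeR) and in a fit of the 48 h groups alone (adjusted p = 0.0951, edgeR). It was also lost on leaving out any of 8 single libraries, with adjusted p from 0.0511 without cKO replicate 3 at 0 h to 0.163 without cKO replicate 2 at 48 h (edgeR). The folliculin partners Fnip1 and Fnip2 rose, by 1.52 ± 0.10 and 3.86 ± 0.31, while Flcn fell by 0.47.

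The lysosomal mTORC1 machinery, which senses amino acids at the lysosome surface, gave 8 higher and 7 lower of 18 in WT, or 44.4% and 38.9%, shares near the 36.9% and 38.4% of all tested genes. Rraga, a Rag GTPase, rose from 37.1 ± 1.03 to 67.7 ± 5.18 CPM and Rheb from 41.5 ± 4.78 to 58.0 ± 3.66 CPM, while Lamtor2, a Ragulator subunit, fell from 56.1 ± 2.23 to 29.4 ± 1.18 CPM. Genes that assemble or bind the pump gave 4 higher and 4 lower of 9, or 44.4% each: Tmem199 and Vma21, assembly factors, rose by 0.85 ± 0.11 and 0.36 ± 0.08, and Dmxl1, of the RAVE-like complex, fell by 1.05. Genes of lysosome fusion and positioning gave 3 higher and 11 lower of 19, or 15.8% and 57.9%, with Arl8b, which moves lysosomes outward, up from 45.8 ± 1.72 to 105 ± 2.71 CPM. Autophagy genes gave 1 higher and 11 lower of 19, or 5.26% and 57.9%. The one that rose was Gabarapl1, at 2.98, 4.99 and 6.10 CPM at 0 h and at 73.3, 71.8 and 66.5 CPM at 48 h (log2 fold change 3.91 ± 0.23, adjusted p = 8.4e-10, edgeR), while Gabarap and Map1lc3b fell by 0.92 and 0.98.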

How the data were processed

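Messenger RNA was measured in 12 libraries of mouse spleen CD8 T cells, made with a NEBNext Ultra kit per the labels' protocols. The authors deposited 1 table of raw read counts per gene with annotation columns, and each column was assigned to a library through the labels. The submitters' processing notes name fastp 0.20.1, HISAT2 2.1.0, SAMtools 1.9 and HTSeq 0.11.2 and the build GRCm39. Counting settings and strand are not given in the sources used here, and 32 of the 128 genes overlap another protein-coding gene in GENCODE M21.

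The test was edgeR's quasi-likelihood test (version 4.0.16, R 4.3.3): all 12 libraries in one fit with 4 group means, TMM scaling, genes kept by filterByExpr (minimum count 10, minimum total 15) and Benjamini-Hochberg adjustment over all 12404 genes at 0.05. CPM values are TMM-scaled. Standard errors are the log2 fold change divided by the root of the F statistic. Levels per kb use merged exon lengths of GENCODE M21 (GRCm38, another build than the counts). Promoters come from RefSeq (GRCm38.p6).

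The genes, role groups, related lists and markers were chosen with earlier results of these data known. Named genes were the tested pump genes, in each other role the up to 4 genes with the smallest adjusted p in WT in each direction, the genes called between cKO and WT, Tfeb, Tfe3, Mitf and the up to 4 of each related list and direction with the smallest adjusted p; Ctsb, Ctsc, Ctsh, Ctss, Lgmn, Napsa, Tpp1, Cd68, Cd63, Cln3, Ctns, Gaa, Fuca1, Fuca2, Acp2, Dnase2a, Entpd4b, Igf2r, Clta, Cltb, Ap1m2, Sumf1 and Galns were named after their values were seen. The labels do not say that same-numbered libraries of 0 h and 48 h share a mouse. Numbers were therefore not used for pairing in the main fit. WT replicate 3 lacked Eif2s3y counts at both times, and cKO replicate 1 held Trmt61a at the WT level at both times. The numbers may thus mark a shared source, and a fit with them as a block is given below. No library duplicated another. Some genes that the rule names are not reported here.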

Additional observations from a re-analysis of the deposited data

How the results depend on the processing

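The counts over 48 h changed little: in WT 18 to 25 genes rose and 63 to 68 fell under the alternatives run, and in cKO 18 to 24 and 63 to 70. Leaving out 1 library gave 19 to 25 higher and 63 to 67 lower in WT and 20 to 24 and 63 to 68 in cKO. Upper-quartile scaling moved the median of all tested genes in WT to -0.12 and that of the lysosome genes to -0.53. At 0 h each alternative called 0. For cKO against WT at 48 h, the number higher (4) was 2 with limma-voom 3.58.1 and 0 with only the 48 h groups fitted. The number lower (1) was 2 with upper-quartile scaling, 3 without a count filter, 3 with a filter at a mean of 1 CPM, 5 with DESeq2 1.42.0 and 4 with limma-voom. In both directions together DESeq2 called 11 and the fit without a filter 8. Abca2 joined the higher genes in both, and Psap with DESeq2. Over all genes, DESeq2 called 702 higher and 352 lower of 11275, and the fit without a filter 496 and 207 of 16352. Limma-voom called 359 and 302 of 12404, and the 48 h groups alone 82 and 56 of 11670. Leaving out 1 library gave 0 to 9 higher and 0 to 12 lower, beside 47 to 1201 and 6 to 1059 over all genes tested. The alternatives without whole replicates were chosen after seeing the data: without both libraries labelled cKO replicate 1 there were 9 higher and 12 lower at 48 h, and 2 higher and 5 lower in the interaction. Without both libraries of WT replicate 3 there were 0 and 0 at 48 h, beside 15 and 1 of all 12647 genes tested. The interaction gave 1 lower without a filter and 1 lower with DESeq2, and 0 to 1 higher and 0 to 5 lower with 1 library left out. Over all genes the interaction gave 97 higher and 25 lower of 16352 without a filter, and 316 and 133 of 10958 with DESeq2. The replicate number was also fitted as a block, within each genotype for the changes over time and the interaction. There were then 21 higher and 67 lower in WT, 22 and 68 in cKO, and 1 lower in the interaction. This block ended the WT call of Atp6v1h (adjusted p = 0.0566, edgeR). For cKO against WT, WT and cKO libraries of the same number shared a block, a pairing that no label states. At 48 h there were then 5 higher and 3 lower, with Atp6v0b called lower. Same-numbered WT and cKO libraries of 48 h correlated at 0.308, 0.227 and 0.00843, and those of 0 h at 0.0423, 0.0167 and -0.15. WT and cKO libraries of unlike number were not correlated, so these values have nothing to be set against. Correlations of same-numbered libraries between 0 h and 48 h were 0.0903, 0.153 and 0.218 in WT and 0.0955, 0.0866 and 0.0749 in cKO, and each of these 6 was the highest for its library, a hint from the data and not the design. Calls lost under an alternative kept their direction. Genes at low counts, such as Ctsf (at most 18 counts), give wide errors. For the other changes the cause was not tested.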
